A study of Mus musculus with 2 samples.

Results

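The array carried 75 genes named Mrpl or Mrps followed by a digit, the protein subunits of the mitochondrial ribosome, out of 27835 named genes with transcript probes on both arrays. They were taken by the array's own gene names, 46 for the large subunit (Mrpl) and 29 for the small subunit (Mrps), and had 126 of 41158 probes. The probe with the highest mean intensity stood for each gene. RNA came from the thymus of 6-month-old Pla2g10-Tg/+ mice, which carry a transgene for a secreted phospholipase A2, and of littermate controls, all on a C57BL/6 background. Each genotype's pool combined 4 mice, and labelling for the 2 two-colour Agilent arrays started from 500 ng of total RNA. The transgenic pool was red (Cy5) on array 1 and green (Cy3) on array 2, with the control pool in the other dye. The labels do not name the promoter of the transgene or say whether the arrays held separate pools. The arrays were therefore taken as 1 technical dye swap of 1 pool per genotype, so that SDs are between arrays (n = 2 arrays) and no test across animals exists.

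Mitochondria keep their own ribosome, which translates the few messages of the mitochondrial genome, all of them for membrane subunits of the respiratory chain and ATP synthase. Its RNA is made inside the organelle, but all of its proteins are encoded in the nucleus, made in the cytosol and imported. Many of them descend from bacterial ribosomal proteins, while others were added in the mitochondrial lineage. In mammals, nuclear respiratory factor 1 (NRF-1), the ETS factor GABP and YY1 are known to bind promoters of nuclear genes for mitochondrial proteins. The large subunit joins amino acids at the peptidyl transferase centre, and the small subunit binds the message and reads its codons.

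The upstream sequences of the members are shown first because these genes are often described as being under common transcription factors. A RefSeq table of the mouse build GRCm38.p6 held windows for 66 of the 75 members, and 250 bases before each start were searched on both strands. The ETS motif CCGGAAGT was found upstream of 9 of 66 members (13.6%), against 2.9% of 27025 genes in the table. The YY1 motif AAGATGGC was found upstream of 4 members (6.1%), against 1.6% of all genes. The NRF-1 motif, written loosely as GCGC, any 2 bases and GCGC, was upstream of 9 members (13.6%), against 5.1% of all genes. Of these 9 members, 8 were among the 40 large subunit genes with a window and 1 was among the 26 small subunit genes. The stricter NRF-1 form with AT in the middle was upstream of 3 members (4.5%), all of the large subunit, against 0.8% of all genes, and every stricter match is also a loose one. The Sp1 box GGGCGG was upstream of 31 members (47.0%), against 32.9% of all genes. Median GC content of the 250 bases was 58.4% in members and 52.0% in all genes, and its part in these shares was not tested. The lines below show the 3 genes with the stricter NRF-1 motif and 1 example each of the ETS and YY1 motifs, given 5′ to 3′ on the gene's strand with the motif in capitals. The Mrpl36 match lies on the opposite strand to the gene, so it reads as the reverse complement.
Mrpl39, NRF-1, chr16:84735344-84735385 (minus strand): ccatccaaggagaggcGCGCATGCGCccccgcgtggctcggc
Mrpl32, NRF-1, chr13:14613099-14613140 (minus strand): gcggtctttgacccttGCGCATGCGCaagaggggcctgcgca
Mrpl9, NRF-1, chr3:94443292-94443333 (plus strand): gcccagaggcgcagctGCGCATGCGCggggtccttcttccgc
Mrpl51, ETS, chr6:125192094-125192133 (plus strand): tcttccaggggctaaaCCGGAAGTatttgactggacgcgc
Mrpl36, YY1, chr13:73330963-73331002 (plus strand): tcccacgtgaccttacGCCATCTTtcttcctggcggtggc

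The genes with an NRF-1 or ETS motif did not share a direction in the transgenic thymus. The log2 ratios of transgenic over control were -0.15 ± 0.01 for Mrpl39, -0.08 ± 0.04 for Mrpl32 and 0.11 ± 0.05 for Mrpl9, whose upstream bases hold the stricter NRF-1 motif. The 9 measured members with the loose motif had a median of -0.08, with 4 above 0 and 5 below, and the 55 measured members without it had a median of -0.01. The 8 measured members with an ETS match had a median of -0.015 and the 56 without one had a median of -0.02. The 4 members with a YY1 match were all below 0 in the mean of both arrays, as were 42 of all 73 measured members. They read -0.08 ± 0.04 (Mrpl32), -0.04 ± 0.14 (Mrpl36), -0.11 ± 0.06 (Mrps11) and -0.01 ± 0.03 (Mrps12). All of these are matches to letters, and binding was not measured.

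Another feature of these upstream regions is that many are shared with a neighbour transcribed the other way. Such a divergent gene starts within 1000 bases of 24 of the 66 members (36.4%), against 11.1% of all genes in the table. In 1 case both genes are subunits, as Mrps11 and Mrpl46 start 42 bases apart on chromosome 7. The bases between them, with an Sp1 box in capitals, are printed on the strand of Mrps11.
Mrps11 and Mrpl46, chr7:78783090-78783130 (plus strand): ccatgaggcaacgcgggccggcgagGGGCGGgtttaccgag

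The facing genes Mrps11 and Mrpl46 read -0.11 ± 0.06 and 0.02 ± 0.14. Mrps12, whose small subunit protein lies at the decoding centre, read -0.01 ± 0.03. Its divergent neighbour Sars2, for mitochondrial seryl-tRNA synthetase, read -0.10 ± 0.05.

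Of the 75 members, 73 were measured, meaning that 1 genotype's channel was well above background on both arrays by the scanner software's flag. These 73 are all 46 of the large subunit and 27 of the 29 of the small subunit, and 99 of the 126 probes met the criterion. All 4 channels were well above background for 72 of the 73. The exception is Mrpl37, a subunit without a bacterial counterpart, with 1 of 2 transgenic channels and both control channels above. No member was saturated in any channel. The genes not measured were Mrps18b and Mrps27, each in 0 of 4 channels. Mrps18b had raw signals of 44.6 and 46.4 in the transgenic pool and 49.8 and 39.2 in the control pool on arrays 1 and 2. Mrps27 had raw signals of 41.3 and 48.9 in the transgenic pool and 53.5 and 43.9 in the control pool. All of these stood over local backgrounds of 35 to 37 units. Nothing can be said of a difference in either gene at this signal.

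Across the arrays, 9414 genes were measured. Spots well above background made up 34.1% and 28.5% of the transgenic channels and 29% and 33.2% of the control channels on arrays 1 and 2, so red had the larger share each time. The only probe for Pla2g10 was above background in 0 of 4 channels (log2 ratio -0.04 ± 0.03), and since the transgene's extent is not given it does not check the labels. Genes of immature thymocytes such as Cd8a, Rag1 and Cd4 were measured, and Rag2 was not. Of 8 such genes measured, 6 were lower in the transgenic pool (median log2 ratio -0.32), and their summed intensity was 20536 to 20581 in the transgenic pool against 26477 to 26739 in the control pool. All 5 measured adipocyte genes were higher (median 0.78), with sums of 1800 to 1864 in the transgenic pool against 1088 to 1145 in the control pool. The adipocyte genes Adipoq, Plin and Retn were not measured. For the T cell list the sums were 10808 to 11405 in the transgenic pool against 12956 to 13100 in the control pool. Of 8 cell cycle genes 3 were shifted lower (median -0.081), with sums of 7004 to 7100 in the transgenic pool against 6985 to 7371 in the control pool. The 5 medullary epithelium genes were all above 0 (median 0.33, 3 shifted higher), with sums of 1058 to 1090 in the transgenic pool against 701 to 770 in the control pool. Of 3 brown adipocyte genes measured 2 were shifted higher (median 0.50; Ucp1 not measured), with sums of 332 to 591 in the transgenic pool against 249 to 267 in the control pool. None of 5 macrophage genes was shifted (median -0.022), with sums of 432 to 447 in the transgenic pool against 454 to 459 in the control pool. These sums run over every gene of a list on the array, those not measured included. In a whole organ, fewer cells of a type and less RNA per cell cannot be told apart, and the part of cell make-up in the ratios below was not tested.

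The mitochondrial ribosomal protein genes as a group had ratios close to those of the typical measured gene. Their median log2 ratio was -0.015, from 0.028 on array 1 and -0.038 on array 2, against -0.0021 for all 9414 genes (0.012 and -0.012). The sign of the group's median thus differed between the arrays. Loess centres each array's ratios on 0 along the range of signal, so these values are relative to other genes and give no absolute level. With median centring in place of loess, the medians were -0.061 for the large and -0.077 for the small subunit. Of the 73 members, 31 were above 0 and 42 below in the mean of both arrays. The mean ratios spread with an SD over genes of 0.11, from -0.20 to 0.44, and over all measured genes the SD was 0.14. The means of 71 of 73 members (97.3%) lay within 0.2 of 0, against 87.9% of all measured genes. The members also had more signal, with a median of 176.2 units above background against 95.8 for all genes, and 7 of 73 (9.6%) were under 50 units against 27.1% of all genes. How far signal sets the narrower spread was not tested.

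**Figure D1:**
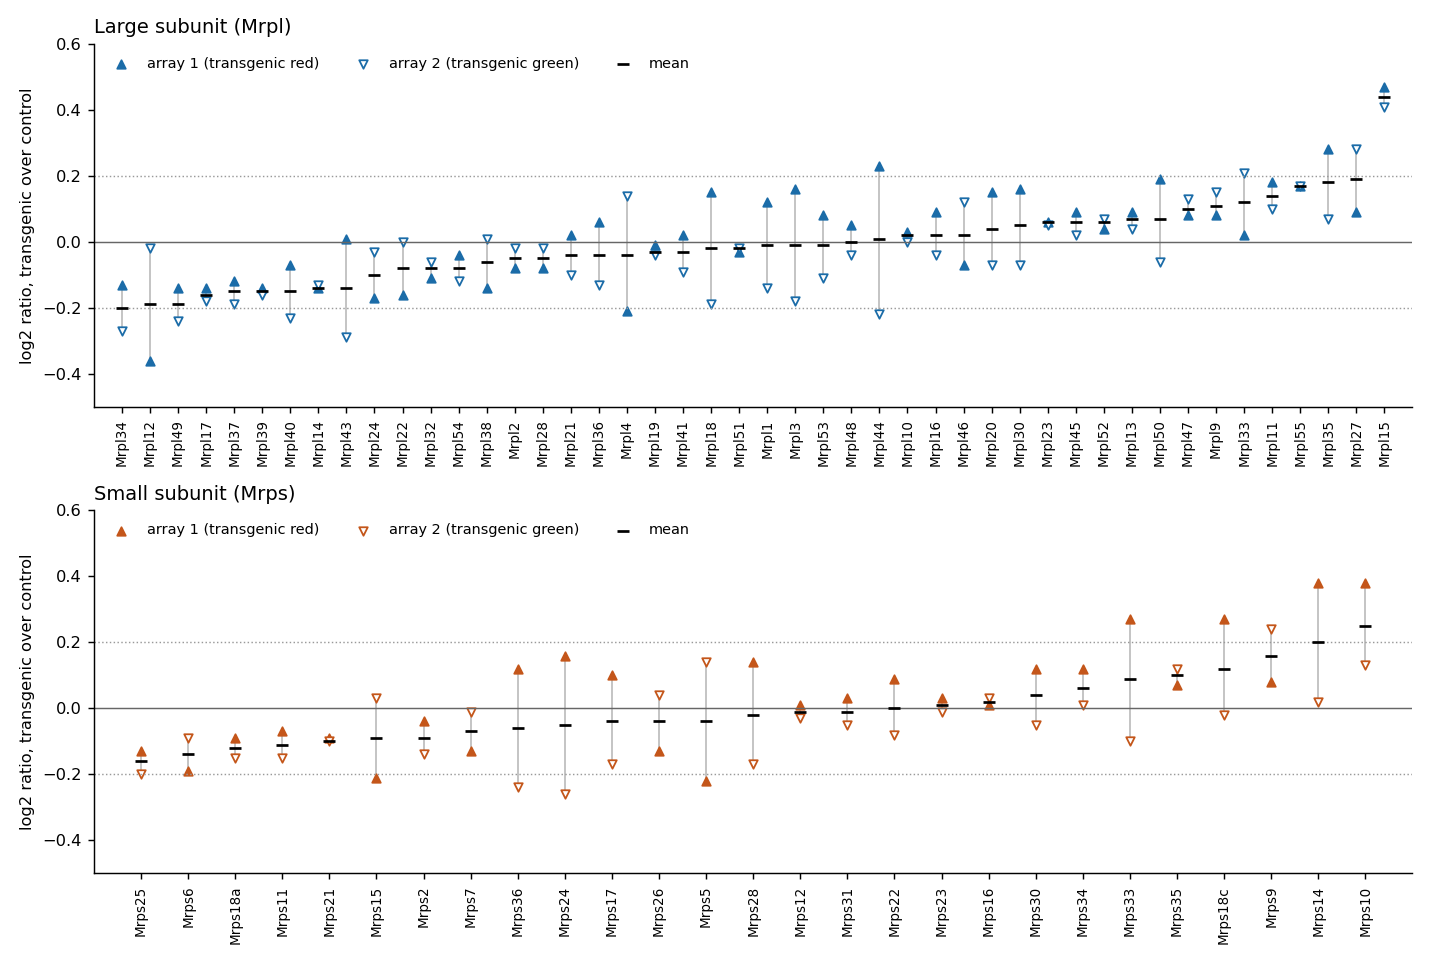
Log2 ratio of transgenic over control thymus for the 46 large subunit genes (upper panel) and 27 small subunit genes (lower panel) that were measured, each ordered by the mean of both arrays. Filled triangles are array 1, open triangles array 2, short bars their mean, and dotted lines mark 0.2 and -0.2; Mrpl15 stands alone at 0.44 and most other genes straddle 0 or lie within the dotted lines.

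Large and small subunit genes did not separate. The 46 large subunit genes had a median of -0.018 (20 above 0 and 26 below), and the 27 small subunit genes a median of -0.015 (11 above and 16 below). The difference of the medians, large minus small, was -0.003 in the mean of both arrays, 0.0 on array 1 and 0.008 on array 2. The ratios between the 25th and 75th percentiles ran from -0.079 to 0.057 in the large subunit and from -0.079 to 0.049 in the small subunit. Without Mrpl15 the large subunit's median was -0.023. Gene names do not match the structure everywhere, since in mammals the proteins of Mrps18a and Mrps30 sit in the large subunit and that of Mrps36 belongs to the oxoglutarate dehydrogenase complex. With these 3 moved or removed, the medians were -0.018 for 48 large subunit genes and -0.013 for 24 small subunit genes.

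Genes grouped by the number in their names gave like medians. Numbers up to those of Mrpl36 and Mrps21 were counted as having a bacterial counterpart, and higher numbers as specific to mitochondria. This rule does not follow descent for every gene. The 43 measured members counted as having a bacterial counterpart had a median of -0.026, and the 30 with higher numbers a median of -0.012. Of the 12 measured small subunit genes with higher numbers, Mrps36 among them, 9 had opposite signs on the arrays. Of these 9, 8 were higher in red both times. Among all members, 31 of 73 had opposite signs on the arrays, 25 of them higher in red and 6 higher in green. Over all measured genes, 4013 of 9414 had opposite signs, 2311 of them higher in red.

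A gene was counted as shifted where its log2 ratio was at least 0.2 in size on each array with the same sign. By this rule 1 of 73 members was higher, Mrpl15, against a background of 3.02% of all 9414 measured genes, and 0 of 73 were lower, against 2.35%. At least 2-fold (a mean log2 ratio of 1 and 0.5 on each array), 0 members were higher, against 0.0319% of all genes, and 0 were lower, against 0.0%. With the scanner software's own p-value under 0.01 on both arrays, 1 member was higher, again Mrpl15, against 1.02%, and 0 were lower, against 0.276%. As a technical level, the same 0.2 rule applied to the dyes in place of the genotypes found 63 genes higher in red on both arrays and 68 higher in green, with 1 member among them, Mrpl44. At a looser 0.1 on each array, 3 members were higher (Mrpl15, Mrpl55 and Mrps10, 4.11% against 10.1% of all genes). At that level 7 were lower (Mrpl14, Mrpl17, Mrpl34, Mrpl37, Mrpl39, Mrpl49 and Mrps25, 9.59% against 8.88%). The share of members called lower is near the background, and the share called higher is below it. With limma's moderated test, in which the arrays stand as separate measurements and only the spread between arrays counts, Mrpl15 had an adjusted p of 0.014 over all genes. The next member's adjusted p in limma was 0.24, and over all genes 103 were higher and 65 lower at an adjusted p of 0.05.

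**Figure D2:**
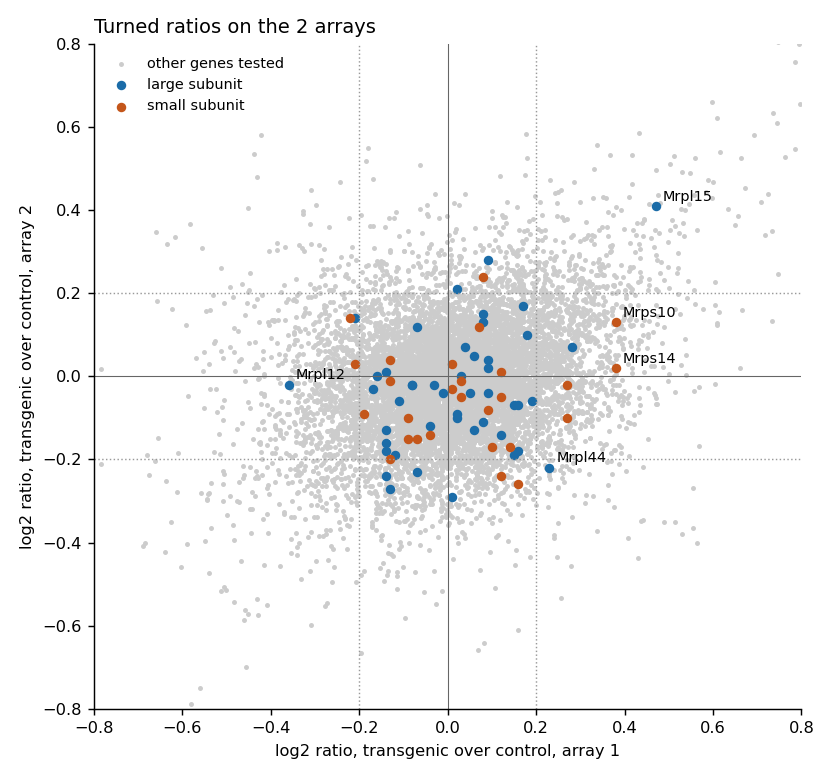
Turned log2 ratios of array 1 (horizontal) and array 2 (vertical) for the large subunit genes (blue), small subunit genes (orange) and all other measured genes (grey), with 19 other genes outside the axes. Mrpl15 is the only member beyond 0.2 on both arrays, and Mrpl44 lies in the lower right quadrant, where a gene is higher in red on both arrays.

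Mrpl15 encodes the counterpart of bacterial ribosomal protein L15, a large subunit protein. Its log2 intensities were 6.94 and 6.84 in the transgenic pool against 6.47 and 6.43 in the control pool on arrays 1 and 2. Both transgenic values lay above both control values, but the share of all measured genes whose pools lie apart in this way is not given. The log2 ratio was 0.44 ± 0.04, or 1.36-fold, from 0.47 on array 1 and 0.41 on array 2. The software's own log2 ratios, from its processed signals, were larger, at 1.03 and 0.96. Its error model's p-values of 2.4e-05 and 8.6e-05 belong to those ratios. This signal comes from a probe (A_52_P190506) that was designed on the clone transcript AK017820 and lies on chromosome 1, 4771675 to 4771734, in mm8. The array has a second Mrpl15 probe (A_52_P547478), designed on the curated mRNA NM_025300, on chromosome 1, 4767667 to 4767726. That probe read 6.26 and 6.41 in the transgenic pool against 6.52 and 6.51 in the control pool, a log2 ratio of -0.18 ± 0.12. The software's own log2 ratios for this second probe were -0.78 and -0.30, with error model p-values of 0.0048 and 0.24. The probes of Mrpl15 thus gave opposite directions, and their mean was 0.13. No annotation of mm8 was used, so the exon, intron or UTR under either probe is not given, and which transcript the first probe reads was not tested. Both probes were dim, at 55.2 units above background for the first and 37.3 units for the second.

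For most other members with several probes the probes differed little. Of 20 members with at least 2 measured probes, 4 had probes of opposite sign, and the median range between a gene's probes was 0.07. Apart from Mrpl15, with a range of 0.62, the members with opposite signs were Mrpl44, Mrps33 and Mrps5, with ranges of 0.08, 0.09 and 0.07. Mrpl44, whose protein has a fold related to RNase III, read 0.23 on array 1 and -0.22 on array 2, a mean of 0.01 ± 0.32. Its log2 intensities were 7.90 and 7.58 in the transgenic pool against 7.66 and 7.80 in the control pool, so red was the higher channel both times. Mrps33 read 0.09 ± 0.26 and Mrps5, counterpart of bacterial S5, read -0.04 ± 0.25. The 3 probes of Mrpl49, a subunit specific to mitochondria, were all negative, between -0.26 and -0.11. The 2 probes of Mrps18c were both positive, at 0.12 and 0.16. Of the 73 measured members, 71 were read by a probe designed on a curated RefSeq mRNA, and the others are Mrpl15 and Mrpl44.

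**Figure D3:**
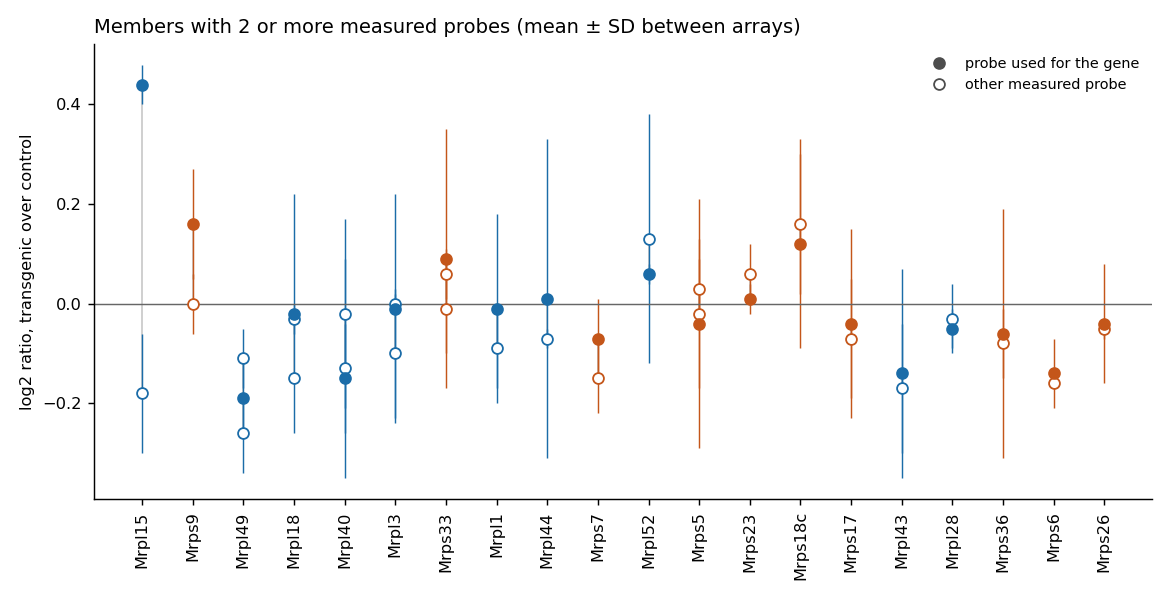
Log2 ratio of transgenic over control for each measured probe of the 20 members with at least 2 such probes, as the mean of both arrays with bars for the SD between arrays, large subunit in blue and small subunit in orange. Filled circles are the probes that stand for the gene and open circles the others; the Mrpl15 probes lie 0.62 apart, at 0.44 and -0.18.

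In the large subunit, the highest ratios after Mrpl15 belonged to Mrpl27, Mrpl35, Mrpl55, Mrpl11 and Mrpl33. Mrpl27, whose bacterial counterpart lies beside the peptidyl transferase centre, had log2 intensities of 8.17 and 8.26 in the transgenic pool against 8.08 and 7.97 in the control pool. Its ratio was 0.19 ± 0.13, and both transgenic values were above both control values. Mrpl35 had 8.29 and 8.10 in the transgenic pool against 8.0 and 8.03 in the control pool, a ratio of 0.18 ± 0.15. Mrpl55, specific to mitochondria, had 8.52 and 8.49 against 8.35 and 8.32 in control, a ratio of 0.17 on each array. Its probe (NM_026035) lies on chromosome 11, 59022000 to 59022059, in mm8. Mrpl11, part of the base of the stalk to which translation factors bind, read 0.14 ± 0.06. Mrpl33 read 0.12 ± 0.13. The pools do not overlap in Mrpl27, Mrpl35, Mrpl55, Mrpl11 or Mrpl33, but none of these genes reached 0.2 on both arrays. The share of all measured genes whose pools lie apart in this way is not given, so it does not single these members out.

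The lowest ratios of the large subunit belonged to Mrpl34, Mrpl12, Mrpl49, Mrpl17, Mrpl37 and Mrpl39. Mrpl34 had log2 intensities of 7.76 and 7.64 in the transgenic pool against 7.89 and 7.91 in the control pool, a ratio of -0.20 ± 0.10. Mrpl12, which forms the stalk as the counterpart of bacterial L7/L12, had 8.24 and 8.41 in the transgenic pool against 8.6 and 8.43 in the control pool. Its ratio of -0.19 ± 0.24 came almost wholly from array 1 (-0.36, against -0.02 on array 2). Mrpl49 had 7.26 and 7.19 in the transgenic pool against 7.39 and 7.43 in the control pool, a ratio of -0.19 ± 0.08. The other low genes agreed closely between arrays, with -0.16 ± 0.03 for Mrpl17, -0.15 ± 0.04 for Mrpl37 and -0.15 ± 0.01 for Mrpl39. Mrpl20 (0.04 ± 0.15) and Mrpl28 (-0.05 ± 0.04), which had ample signal, were near 0, as was Mrpl41 (-0.03 ± 0.08).

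In the small subunit, Mrps10, counterpart of bacterial S10, had the highest ratio. Its log2 intensities were 7.43 and 7.25 in the transgenic pool against 7.06 and 7.13 in the control pool. The ratio was 0.25 ± 0.18, from 0.38 on array 1 and 0.13 on array 2, and its probe (NM_183086) lies on chromosome 17, 46841695 to 46841754, in mm8. Mrps14 had 7.79 and 7.56 in the transgenic pool against 7.41 and 7.54 in the control pool. Its ratio of 0.20 ± 0.25 rested on array 1 (0.38, against 0.02 on array 2). Mrps9 read 0.16 ± 0.11, while its other measured probe read 0.00 ± 0.06. Mrps35, specific to mitochondria, read 0.10 ± 0.03.

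At the low end of the small subunit stood Mrps25, Mrps6, Mrps18a, Mrps11, Mrps21 and Mrps2. Mrps25, specific to mitochondria, had log2 intensities of 6.50 and 6.43 in the transgenic pool against 6.62 and 6.63 in the control pool. Its ratio was -0.16 ± 0.05, and its probe (NM_025578) lies on chromosome 6, 92139634 to 92139693, in mm8. Mrps6 read -0.14 ± 0.07 and its second probe -0.16 ± 0.01. Mrps21 read -0.10 ± 0.01 and Mrps2 -0.09 ± 0.07. The 3 paralogues of bacterial S18 gave no common direction, with -0.12 ± 0.04 for Mrps18a, 0.12 ± 0.21 for Mrps18c and Mrps18b not measured. Mrps30 read 0.04 ± 0.12 and Mrps36 -0.06 ± 0.25. Mrps16 (0.02 ± 0.01) and Mrps28 (-0.02 ± 0.22) were near 0.

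The offset of 50 added to each channel before the logarithm pulls ratios of dim probes towards 0. Without it, 2 members met the 0.2 rule as higher, Mrpl15 and Mrps10 (2.74%, against 8.12% of all genes). Without it, 4 members met the rule as lower, Mrpl17, Mrpl37, Mrpl49 and Mrps25 (5.48%, against 6.52% of all genes). Their ratios were then 0.89 for Mrpl15, 0.38 for Mrps10, -0.25 for Mrpl17, -0.45 for Mrpl37, -0.28 for Mrpl49 and -0.38 for Mrps25. Both shares of members were below those of all genes.

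Other genes of mitochondrial translation were read beside the subunits. The 7 subunits with other names, among them Dap3, had a median of -0.042 with 5 of 7 below 0 and none shifted. Gadd45gip1, a large subunit protein also known as CRIF1, was lowest among them at -0.21 ± 0.03 (-0.19 and -0.24). Of 16 translation factors 14 were measured, with a median of -0.019 and 9 of 14 below 0. In this list 1 gene was shifted lower and 1 higher. Tufm, the elongation factor that brings aminoacyl-tRNA to the mitochondrial ribosome, read -0.39 ± 0.06 (-0.34 and -0.43). Guf1, a mitochondrial relative of bacterial elongation factor 4, read 0.28 ± 0.00 (0.28 and 0.29). Mrrf, the ribosome recycling factor, read -0.22 ± 0.05. Of 27 assembly and rRNA factors 18 were measured, with a median of -0.0034 and none shifted. Noa1, a GTPase of small subunit assembly, was lowest at -0.23 ± 0.06, and Malsu1, an assembly factor of the large subunit, was highest at 0.16 ± 0.14. Of 20 mitochondrial aminoacyl-tRNA synthetases and related amidotransferase genes 14 were measured, with a median of -0.035 and none shifted. Lars2, for leucyl-tRNA synthetase, was saturated in the transgenic channel of array 1, where the ratio read 0.17, so that value and the mean are not exact, and on array 2 it read -0.95.

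Genes for mitochondrial transcription and its regulators were mostly below 0. Of 13 transcription and nucleoid genes 9 were measured, with a median of -0.051 and 7 of 9 below 0. Tfam, which packages and helps transcribe mitochondrial DNA, read -0.30 ± 0.21 (-0.44 and -0.15). Of 14 regulators of mitochondrial biogenesis 11 were measured, with a median of -0.11 and 10 of 11 below 0, though none was shifted by the 0.2 rule. Pprc1, a coactivator of the PGC-1 family, read -0.24 ± 0.12 and Yy1 read -0.22 ± 0.10. The subunit Gabpa of GABP read -0.08 ± 0.10, and Nrf1, which encodes NRF-1, read 0.03 ± 0.05. These lists were chosen with earlier results of these data known.

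The other large gene families of translation and respiration lay apart from or beside the members. The 77 cytosolic ribosomal protein genes had a median of 0.13, with 64 of 77 above 0, 4 shifted higher and 1 shifted lower. The family's median was 0.07 on array 1 and 0.17 on array 2, and 47 of 77 were above 0 on both. Of the 26 with opposite signs on the arrays, 21 were higher in green both times. Near-identical copies are common in that family, and its signals were far above background, with a median of 5305.7 units. Rpl37a read 0.34 ± 0.26 and Rps15a 0.33 ± 0.01, and at the other end Rpl21 read -0.28 ± 0.09. Of 81 nuclear genes for the respiratory chain and ATP synthase 79 were measured, with a median of 0.012 and 44 of 79 above 0. Among them 1 was shifted higher, Atp5l (0.32 ± 0.11), and 1 lower, Cyc1, for cytochrome c1 (-0.25 ± 0.01). The differences between these lists and the members were not tested, since genes are not replicates of a pool.

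**Figure D4:**
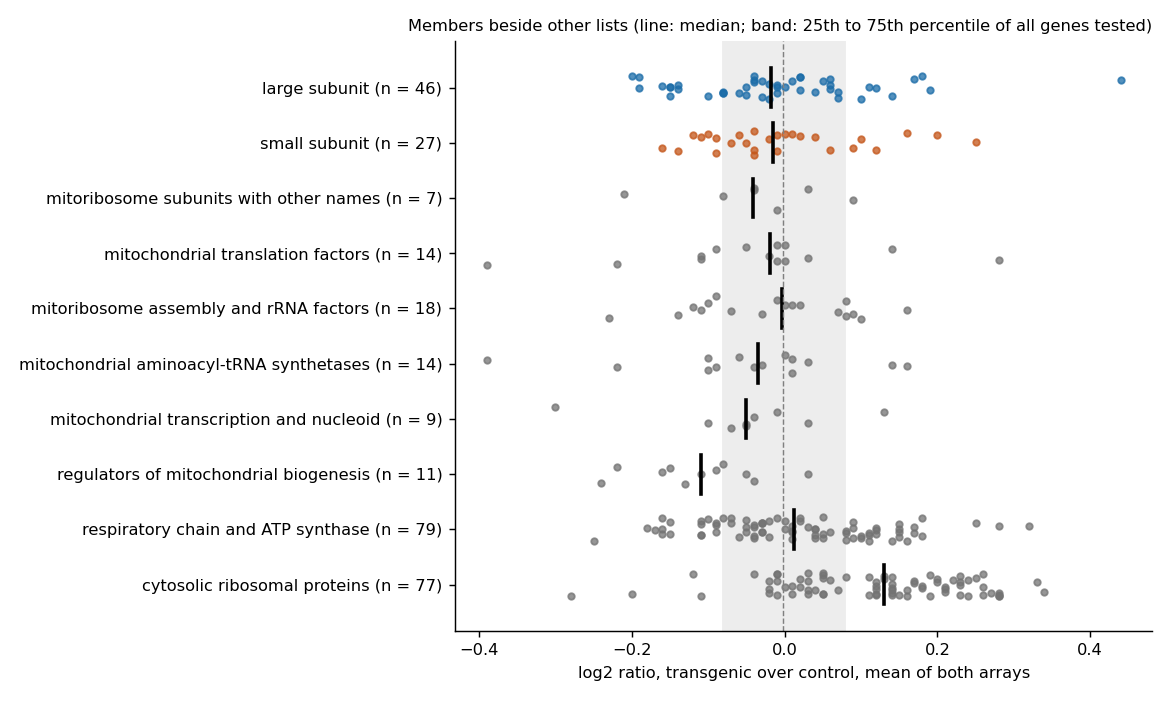
Mean log2 ratio of transgenic over control (horizontal) for the measured large and small subunit genes and 8 other lists, 1 point per gene with vertical jitter. Black lines are medians, the dashed line is the median of all measured genes and the grey band their 25th to 75th percentiles, from -0.08 to 0.079; the subunit medians of -0.018 and -0.015 lie near the dashed line, and the cytosolic ribosomal proteins lie to the right at 0.13.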

How the data were processed

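The deposited scanner files hold the mean and local background intensity of each spot and channel on a linear scale. Per the file headers, Agilent's Feature Extraction (version 9.5.1.1) wrote them. A log10 ratio of the processed signals, red to green, and a p-value by the software's error model are also deposited. The authors' series table equals that log10 ratio and keeps the dye orientation. There were 2256 control spots and 41534 transcript spots per array. The mean intensities were corrected by normexp (offset 50) and normalized by loess within each array in limma 3.58.1 (R 4.3.3). Control and outlier spots had weight 0 in the loess, and outlier spots (46 and 37) were then left out. Array 2 was multiplied by -1, so that log2 ratios read transgenic over control. Unturned, the ratios of the arrays had r = -0.271 across 11302 spots whose 4 channels were all well above background; spots are not independent replicates.

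Genes are those of the array design's names. Probe coordinates are on mm8, per the file headers, and promoter windows on GRCm38.p6 from RefSeq. In limma's moderated test, with each array as a measurement of its own, the spread is technical. Genes named were members past any call rule, the 6 highest and 6 lowest and the 3 with most signal in each subunit, members with probes of opposite sign or not measured, 8 fixed by role (Mrpl12, Mrpl41, Mrps12, Mrps18a, Mrps18b, Mrps18c, Mrps30 and Mrps36), and up to 2 at each end of each list. Others, such as promoter examples, members at the 0.1 level, Atp5l and Cyc1, were picked with values in view. All members and lists were chosen with earlier results of these data known. The procedure was also run on simulated arrays with noise of the same size at every intensity. Their outcome is not given here, so they lend no weight to any call.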

Additional observations from a re-analysis of the deposited data

How the results depend on the processing

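The subunit medians stayed within the spread between arrays under no background correction, processed signals of the scanner software, other filters on dim probes, membership by RefSeq symbol (76 measured members) and subunits by structure. With median centring in place of loess, the medians were -0.061 for the large and -0.077 for the small subunit, and large minus small was 0.016. In that setting 0 members were shifted, against 0.223% of all genes higher and 0.106% lower, and Mrpl15 read 0.43 with 1 array under 0.2. Large minus small was -0.02 with the mean of a gene's probes, and ranged from 0.00014 to 0.0082 on single arrays. With the brightest probe designed on a curated RefSeq mRNA, chosen after seeing the data, large minus small was -0.0087, 0 members were shifted, and Mrpl15 reversed to -0.18. With the mean of probes 0 members were also shifted. Shifted members numbered 6 at offset 0, 7 from the processed signals of the scanner software and 10 at 0.1 on each array. From the processed signals, 2 members were higher, against 9.32% of all 9414 genes, and 5 were lower, against 7.37%. Without background correction 1 member was higher, against 3.69% of all genes, and 0 were lower, against 2.79%. The shares of all genes at offset 0 and at 0.1 on each array are given above. For the mean of probes and the curated probe no share of all genes is given, so those member counts have no background beside them. Members called 2-fold stayed at 0 under each alternative run, though from the processed signals Mrpl15 (1.03 and 0.96) fell only just short. Limma's test with arrays as separate measurements called 1 member. The causes were not tested, except that the probe choice by its construction replaces the Mrpl15 probe. Each ratio already pairs the genotypes within an array, so no further block was fitted. The limits are 1 pool per genotype, 2 arrays and, for 7 members, signals under 50 units above background.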
